A study of Mus musculus with 4 samples.

Results

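Imprinted genes are expressed mainly from the copy inherited from a single parent. The 37 genes described here were taken by symbol from a list of well-known imprinted genes of the mouse. Of these, 31 had at least 1 probe set (a set of short DNA probes that reads 1 transcript) whose platform annotation gave that symbol alone, out of 18193 genes on the arrays. H19, Rtl1, Nespas, Peg13, Zrsr1 and Dcn1 had no such probe set and were not analysed here. A further 8 probe sets that carried a listed symbol together with that of another gene were left out. Usp29 and Zim1 had only probe sets below the filter on dim signals, with readings of at most 8.57 and 11.4 against a filter intensity of 13.05. This left 29 genes for every comparison.

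RNA came from mouse embryonic stem (ES) cells, which keep the ability to form all tissues, in 2 wild-type (WT) clones and 2 clones in which Klf5, a Kruppel-like zinc finger transcription factor, was knocked out (KO). All 4 clones grew in ES medium with serum and the cytokine LIF, and each was read on 1 Affymetrix array. The labels name neither the parental line nor its sex, nor how Klf5 was deleted, nor a feeder layer. They call the samples clones and do not say whether cultures were run in parallel, so the p-values rest on a spread between clones that may in part be technical. For each probe set, limma draws this spread largely from all probe sets together (6.87 prior against 2 residual degrees of freedom).

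Imprinted genes lie in clusters, and each cluster is ruled by a stretch of DNA, rich in CpG dinucleotides, that carries methyl groups on the maternal or the paternal copy only. The mark is set in the germ line and kept through the cell divisions of the embryo, and many of the genes steer growth of the fetus and placenta. Levels of imprinted genes are known to differ between ES cell lines and between clones of a line in culture. For this reason, the difference between clones of a genotype is set beside the difference between the genotypes for each gene. DNA methylation and the expressed allele were not measured here.

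The CpG content of the start sites varied widely among these genes. RefSeq (GRCm38.p6) listed 42 promoters for 28 of the 37 genes, each a window of 300 bases that spans the start. They held between 0 and 45 CpGs, with a median of 13.5, against a median of 7 over 32851 promoters of the same length. The CACCC box, a motif that Kruppel-like factors bind, was searched as CACCC on either strand (CACCC or GGGTG). It was found in 28 of the 42 promoters (66.7%) and in 57.5% of all promoters. The GC box (GGGCGG or CCGCCC) was found in 20 of the 42 (47.6%) and in 35.7% of all. A match describes the letters in this window and is not a binding site. The promoters of genes on which the results turn are given 5′ to 3′ with each CpG in capitals: Ndn and Nnat, which differed between genotypes, and Grb10, Plagl1 and Meg3, which differed between clones of a genotype. Grb10 and Meg3 each had another window as well, and the one with more CpGs is shown. Peg10 had no entry.
Ndn (chr7:62348027-62348326, plus strand): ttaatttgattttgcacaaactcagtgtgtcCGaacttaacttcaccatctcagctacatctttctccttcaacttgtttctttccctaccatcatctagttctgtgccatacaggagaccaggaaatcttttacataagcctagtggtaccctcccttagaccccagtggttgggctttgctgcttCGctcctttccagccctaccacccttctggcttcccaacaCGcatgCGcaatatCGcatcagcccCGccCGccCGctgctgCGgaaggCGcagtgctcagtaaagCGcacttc
Nnat (chr2:157559828-157560127, plus strand): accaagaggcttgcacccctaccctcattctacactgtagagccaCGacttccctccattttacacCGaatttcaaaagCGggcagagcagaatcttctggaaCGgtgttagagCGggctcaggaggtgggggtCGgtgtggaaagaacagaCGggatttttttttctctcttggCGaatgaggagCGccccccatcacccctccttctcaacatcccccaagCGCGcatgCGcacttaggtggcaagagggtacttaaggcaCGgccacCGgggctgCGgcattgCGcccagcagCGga
Grb10 (chr11:12037371-12037670, minus strand): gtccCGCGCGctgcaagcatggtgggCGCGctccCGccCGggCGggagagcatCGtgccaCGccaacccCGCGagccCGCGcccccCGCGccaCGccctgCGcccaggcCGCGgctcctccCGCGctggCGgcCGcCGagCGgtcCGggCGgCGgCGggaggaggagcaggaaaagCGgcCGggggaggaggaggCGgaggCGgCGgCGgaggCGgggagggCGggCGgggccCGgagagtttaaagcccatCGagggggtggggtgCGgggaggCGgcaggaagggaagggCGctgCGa
Plagl1 (chr10:13090582-13090881, plus strand): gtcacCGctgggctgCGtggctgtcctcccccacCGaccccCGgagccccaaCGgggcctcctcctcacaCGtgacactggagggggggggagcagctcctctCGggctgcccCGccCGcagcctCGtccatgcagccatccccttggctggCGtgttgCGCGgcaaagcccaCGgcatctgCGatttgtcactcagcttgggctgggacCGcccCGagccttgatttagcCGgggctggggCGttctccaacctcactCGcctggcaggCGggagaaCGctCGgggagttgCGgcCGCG
Meg3 (chr12:109540746-109541045, plus strand): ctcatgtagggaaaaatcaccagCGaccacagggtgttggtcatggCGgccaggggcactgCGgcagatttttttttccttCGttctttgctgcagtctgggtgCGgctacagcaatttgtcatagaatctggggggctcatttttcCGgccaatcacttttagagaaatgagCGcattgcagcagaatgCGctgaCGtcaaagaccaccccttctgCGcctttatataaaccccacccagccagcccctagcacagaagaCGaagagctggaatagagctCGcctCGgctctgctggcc

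These windows held from 11 CpGs in Ndn to 45 in Grb10, which stood at percentile 98.2 of all promoters. The Plagl1 window held no CACCC box, Ndn held 1, Nnat and Grb10 held 2 each, and Meg3 held 4.

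The arrays separated the genotypes as labelled. The brightest Klf5 probe set read 2398 and 1782 in the WT clones and came to 34.8 and 49.9 in the KO clones. Readings are normalized intensities in arbitrary units, and pairs of readings stand in the order clone 1, clone 2. The trimmed mean of the deposited intensities ran from 137 to 226, brightest in WT clone 1. As a measure of RNA integrity, the 3′ over 5′ log2 ratio of beta-actin probe sets came to 0.48 and 0.44 in WT, while KO had 0.75 and 0.52. Of 8 ES cell markers (Pou5f1, Sox2, Nanog and others) 0 rose and 0 fell by limma, 1 of them lower at an unadjusted p under 0.05. Their summed intensity was 34995 and 35647 in WT beside 33035 and 33658 in KO. In both KO clones 5 of the 8 read lower and 1 higher, against 29.7% and 25.9% of all genes. Of 17 measured fibroblast and feeder cell markers 16 rose in KO clones by limma, beside 2.94% of all genes. The summed intensity of the 17 was 831 and 717 in WT beside 7708 and 6983 in KO. Of the defining markers Col1a1, Col1a2, Col3a1 and Thy1 were above the filter while Lum was not. Prrx1 and Col6a1, with WT means of 4.41 and 4.725 on the log2 scale, passed the filter at 4.86 only through their KO readings. In such bulk samples, a change in the number of cells of a type and a change in RNA per cell cannot be told apart. Of 7 trophoblast markers 0 rose and 1 fell (Krt18), with sums of 3334 and 3370 in WT against 2258 and 2562 in KO. Of 5 primitive endoderm and 4 neuron markers 0 passed in limma, 1 and 0 of them at an unadjusted p under 0.05.

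Among the 29 imprinted genes, Ndn rose and Peg10 and Nnat fell in Klf5 KO clones, and 26 did not pass the test (limma, adjusted p under 0.05 over 27022 probe sets, n = 2 arrays per group). Over all 13023 genes measured, 2.94% rose and 1.34% fell, together 4.28%. Of the 63 probe sets of these genes above the filter, 3 rose and 3 fell, against 3.69% of all probe sets in either direction. At an unadjusted p under 0.05, 2 of the 29 genes were higher and 11 lower, against 10.9% and 10.6% of all genes. With a pseudocount of 1, or with no filter on dim probe sets, 0 imprinted genes passed in limma, beside 0.869% and 0.643% of all genes. The median log2 fold change, KO minus WT, was -0.058 for the imprinted genes and -0.024 for all genes. Both KO clones read above both WT clones for 4 imprinted genes and below them for 13, against 25.9% and 29.7% of all genes, together 17 of 29 against 55.6%. The scaling of the arrays shifts these values: the median of all genes was -0.23 in the intensities as deposited and -0.18 after centring on the median. With median centring 0 imprinted genes rose and 10 fell, beside 418 genes higher and 928 lower over all, whereas the main scaling gave 383 and 175.

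**Figure D1:**
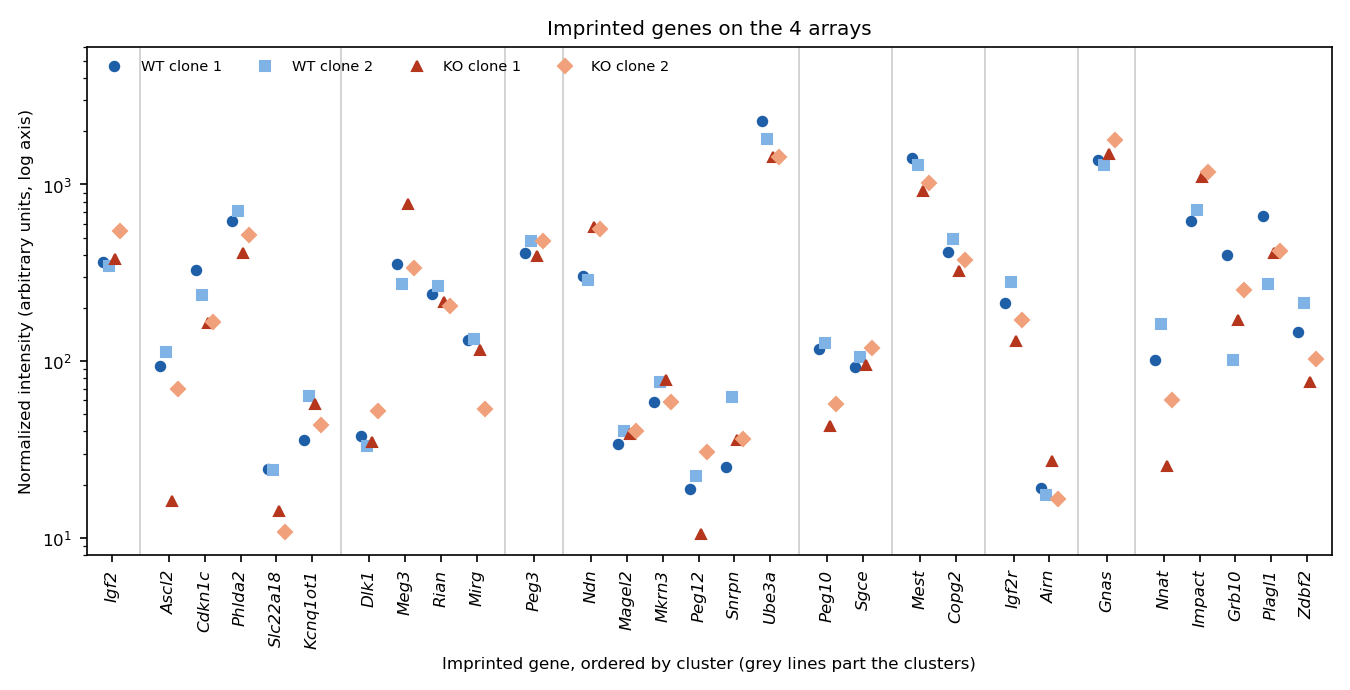
Normalized intensity (log axis) of the 29 imprinted genes on each of the 4 arrays, ordered by cluster; circles and squares are WT clones, triangles and diamonds KO clones. Ndn reads higher in both KO clones, Peg10 and Nnat lower, while for Grb10 and Plagl1 the WT clones lie apart with both KO clones between them.

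Ndn encodes necdin, a growth suppressor of the MAGE family that is expressed from the paternal copy. It read 305 and 287 in the WT clones and came to 571 and 563 in the KO clones. The KO clones lay close together and well above the WT clones. The rise was 0.90 ± 0.18 on the log2 scale (SE; 1.87-fold, limma, adjusted p = 0.028), while the clones of a genotype differed by at most 0.081. Of its 5 probe sets above the filter, all had a positive log2 fold change, from 0.63 to 0.91, and 3 passed. They read the same transcript and are not independent. The call was lost with any 1 array left out (limma, adjusted p from 0.0875 to 0.144), with median centring (0.0753) and in the values as deposited, where the log2 fold change was 0.58 (0.641). Fibroblast markers were higher in the same arrays, and their part in this result was not tested.

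The neighbours of Ndn that were measured did not pass. This cluster, known from Prader-Willi and Angelman syndromes, is expressed from the paternal copy except for the ubiquitin ligase gene Ube3a, which neurons express from the maternal copy. Magel2, another MAGE gene, read 33.8 and 40.2 in WT beside 38.9 and 40.2 in KO, and its log2 fold change was 0.071 (95% confidence interval -0.34 to 0.48). Mkrn3, a makorin RING finger gene, had 0.017 (-0.45 to 0.48). Peg12, of the FRAT family, had -0.058 (-0.66 to 0.54), and Snrpn, a splicing protein gene, -0.13 (-0.78 to 0.51). The groups overlapped for all 4. The Snrpn value rests on 1 dim probe set, since probe sets that also carry the symbol of the overlapping gene Snurf were left out. Snrpn differed more between WT clones, at 25.3 and 63.0, than between genotypes. The brightest Ube3a probe set read 2292 and 1811 in WT beside 1428 and 1436 in KO (log2 fold change -0.50 ± 0.19, limma, adjusted p = 0.19). Its groups did not overlap, but the 5 other probe sets of Ube3a ranged from -0.21 to 0.24.

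Peg10, a gene derived from a retrotransposon and needed in the placenta, fell in KO clones. It read 118 and 127 in the WT clones and came to 43.1 and 57.6 in the KO clones, on its single probe set. The groups lay apart, and the fall was 1.07 ± 0.19 on the log2 scale (2.10-fold, limma, adjusted p = 0.0202). Sgce (epsilon-sarcoglycan), which shares a promoter region with Peg10 and is also expressed from the paternal copy, read 93.1 and 105 in WT beside 95.4 and 118 in KO. Its groups overlapped, with a log2 fold change of 0.090 (95% confidence interval -0.34 to 0.52) that turned negative in the values as deposited and after median centring. The difference between these neighbours was not itself tested. The Peg10 call was lost with any 1 array left out (limma, adjusted p from 0.0521 to 0.139) and in the values as deposited (0.0732). The summed trophoblast markers were lower in the same KO clones, at 2258 and 2562 beside 3334 and 3370 in WT, and their part was not tested. Krt8 and Krt18 make up most of that sum in WT, Hand1 of the same list had 0.70 (adjusted p = 0.0853) and Tfap2c -0.007 (adjusted p = 0.99, limma).

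Nnat encodes neuronatin, a small membrane protein expressed from the paternal copy in brain and endocrine cells. It read 101 and 162 in the WT clones and came to 25.5 and 60.4 in the KO clones. Each genotype spread widely, yet both KO clones lay below both WT clones. The fall was 1.36 ± 0.31 on the log2 scale (2.57-fold, limma, adjusted p = 0.0484), beside clone differences of 0.60 in WT and 0.88 in KO. This call lay close to the threshold and was lost without WT clone 2 (adjusted p = 0.15) and without KO clone 1 (adjusted p = 0.25, limma). With a pseudocount of 64 the log2 fold changes of Nnat and Peg10 were -0.87 and -0.71, and both passed.

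**Figure D2:**
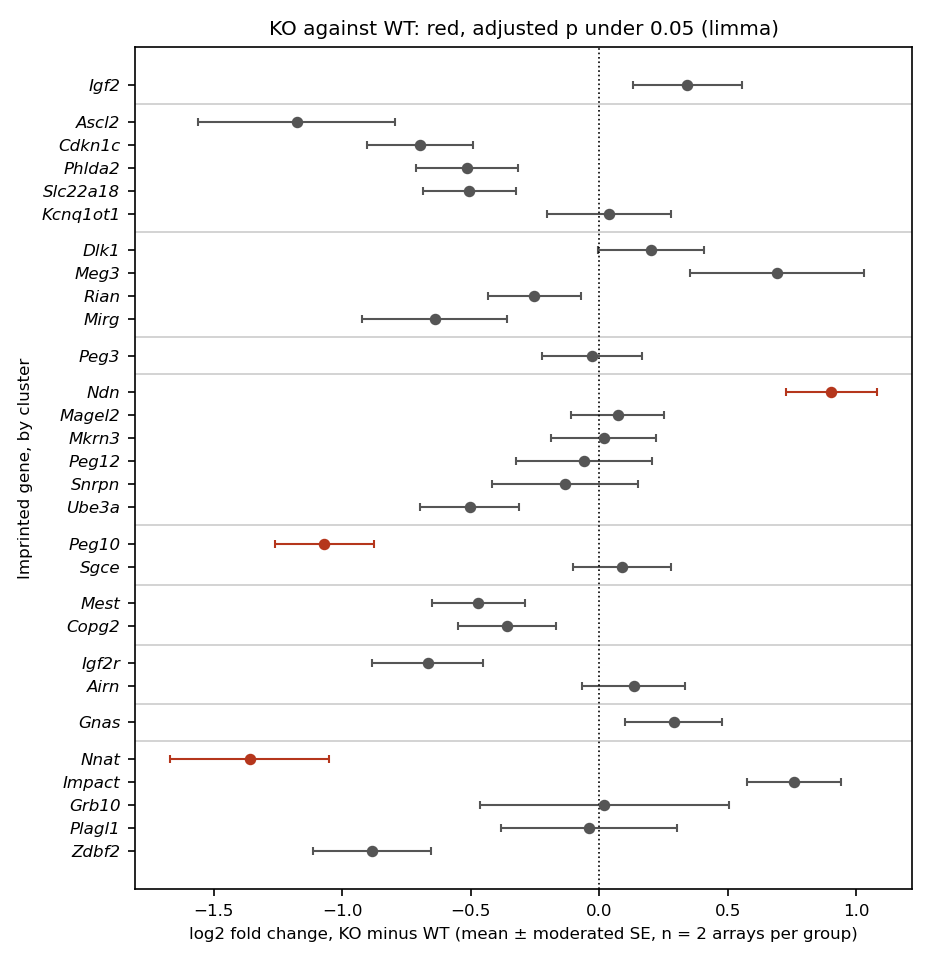
log2 fold change, KO minus WT, of the 29 imprinted genes by cluster, as the limma estimate ± moderated SE (n = 2 arrays per group); red marks adjusted p under 0.05. Ndn (0.90), Peg10 (-1.07) and Nnat (-1.36) are red, and the maternally expressed genes Ascl2, Cdkn1c, Phlda2 and Slc22a18 all lie below 0.

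Impact and Zdbf2, both expressed from the paternal copy, came next in adjusted p. Impact, a regulator of translation under stress, read 625 and 713 in WT beside 1102 and 1176 in KO. The groups lay apart, with a log2 fold change of 0.76 ± 0.18 (limma, adjusted p = 0.0596). A second Impact probe set had 0.33 (adjusted p = 0.36, limma). Zdbf2, which encodes a zinc finger protein, read 147 and 213 in WT beside 76.5 and 102 in KO, a log2 fold change of -0.88 ± 0.23 (limma, adjusted p = 0.0726). Both passed with a pseudocount of 64, with the filter at the 60th percentile and with a variance trend. Impact had 0.48 with median centring (adjusted p = 0.173) and 0.43 in the values as deposited (adjusted p = 0.764, limma), where Zdbf2 had -1.04 (0.00904) and -1.08 (0.15).

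In the Kcnq1ot1 domain, the long noncoding RNA Kcnq1ot1 is made from the paternal copy and silences its neighbours on that copy. The neighbours are expressed from the maternal copy and restrain growth or serve the placenta. All 4 measured here read below the WT clones in each KO clone, a pattern seen in 29.7% of all genes, and 0 passed the test in limma, though all 4 had an unadjusted p under 0.05 (10.6% of all genes were lower at that level). With median centring Ascl2 (adjusted p = 0.0167), Cdkn1c (0.0209) and Phlda2 (0.0327) did pass in limma, as did Cdkn1c with a pseudocount of 64 (0.0409) and Ascl2 in the values as deposited (0.0474). Their log2 fold changes were below 0 under every alternative scaling, pseudocount and left-out array in which they were measured. Cdkn1c (p57), an inhibitor of the cell cycle, read 330 and 236 in WT beside 165 and 167 in KO (log2 fold change -0.70 ± 0.21, limma, adjusted p = 0.109). Phlda2, which limits placental growth, read 622 and 710 in WT beside 407 and 521 in KO, with -0.51 ± 0.20 (limma, adjusted p = 0.193). Slc22a18, a transporter-like gene, read 24.5 and 24.3 in WT beside 14.2 and 10.8 in KO, with -0.505 (limma, adjusted p = 0.164). The KO mean of Slc22a18, at 4.83 on the log2 scale, lay below the filter at 4.86. It thus passed the filter only through its WT readings, which bears on the count of 4.

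Ascl2, a transcription factor of the trophoblast, had the lowest log2 fold change of this domain, at -1.18 ± 0.38 (limma, adjusted p = 0.133). It read 93.7 and 113 in the WT clones and came to 16.2 and 69.8 in the KO clones. Both KO clones lay below the WT clones but 2.66-fold apart from each other. Without KO clone 1 the log2 fold change was -0.47 (adjusted p = 0.414), and without KO clone 2 it was -1.88 and passed (adjusted p = 0.0189, limma). A second probe set, at 63.1 and 119 in WT against 23.1 and 35.0 in KO, did pass (-1.21 ± 0.27, limma, adjusted p = 0.0459), and its KO clones were 1.30-fold apart. The third had -0.64 (limma, adjusted p = 0.0965) and KO clones 1.11-fold apart. The wide gap between KO clones was thus read by 1 of 3 probe sets. Kcnq1ot1 itself read 35.9 and 63.8 in WT beside 57.5 and 43.4 in KO. Its groups overlapped, with 0.038 (95% confidence interval -0.51 to 0.58), and the sign turned in the values as deposited and after median centring.

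The insulin-like growth factor genes did not pass. Igf2, a fetal growth factor made from the paternal copy, read 362 and 347 in WT beside 380 and 542 in KO (log2 fold change 0.34 ± 0.21, limma, adjusted p = 0.399). KO clone 2 stood above the other 3 arrays, and the KO clones were 1.41-fold apart. Igf2r, the maternally expressed receptor that removes IGF2 from the cell surface, read 214 and 282 in WT beside 129 and 172 in KO, with -0.67 ± 0.22 (limma, adjusted p = 0.13). Its other probe set had the opposite sign, at 0.28 (limma, adjusted p = 0.542). Airn, the noncoding RNA that silences Igf2r on the paternal copy, read 16.6 to 27.2, close to the filter, with 0.13 (95% confidence interval -0.32 to 0.59).

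Genes of the other clusters did not pass either. Mest, a hydrolase-like gene of the paternal copy, read 1405 and 1287 in WT beside 917 and 1018 in KO, with -0.47 ± 0.18 (limma, adjusted p = 0.193), and its neighbour Copg2, a coat protein subunit, had -0.36 (limma, adjusted p = 0.325). In both the groups did not overlap. Peg3, a zinc finger gene of the paternal copy, read 409 and 481 in WT beside 395 and 478 in KO, with -0.029 (95% confidence interval -0.47 to 0.41). Gnas, the stimulatory G protein subunit with a complex pattern of imprinting, read 1377 and 1284 in WT beside 1480.5 and 1791 in KO, with 0.29 (limma, adjusted p = 0.425). The Gnas value turned negative in the intensities as deposited.

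Genes were also sorted by the parental copy known to be expressed in at least some tissues. The maternal class includes Ube3a, which is maternal in neurons, and the expressed copy was not measured in these ES cells. The 11 measured maternal genes had 0 calls by limma and a median log2 fold change of -0.505. By limma 7 of them were lower at an unadjusted p under 0.05 (10.6% of all genes). On the probe set used for each gene, 9 of the 11 read lower in each KO clone than in either WT clone, against 29.7% of all genes. The exceptions were Meg3 and Grb10, whose groups overlapped. Other probe sets of Ascl2 above the filter shared this pattern, while those of Igf2r, Ube3a, Rian and Mirg did not. Slc22a18, among the 9, passed the filter only through its WT readings. With the mean of probe sets 10 of the 11 were below 0. Igf2r then had -0.19, Ube3a -0.077 and Rian -0.052. The Grb10 value turned negative in the deposited intensities and after median centring, which left Meg3 as the sole positive value. With median centring 6 of the 11 fell in limma (Ascl2, Cdkn1c, Igf2r, Mirg, Phlda2 and Ube3a), beside 928 of all 13023 genes. The 17 paternal genes had a median of 0.017, with 3 higher and 4 lower in both KO clones (25.9% and 29.7% of all genes). By limma 1 of them rose (Ndn) and 2 fell (Peg10 and Nnat), beside 2.94% and 1.34% of all genes. At an unadjusted p under 0.05 in limma 2 were higher and 4 lower (10.9% and 10.6% of all genes). The difference between these classes was not tested, and neighbours of a cluster are not independent.

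The differences between clones were set beside those between genotypes. The difference between KO and WT means exceeded that between the WT clones and that between the KO clones for 14 of 29 imprinted genes, and for 42.3% of all genes. In the deposited intensities it did so for 8 genes, and for 22.5% of all genes. The median absolute difference was 0.36 between genotypes, 0.19 between WT clones and 0.31 between KO clones, against 0.24, 0.18 and 0.20 over all genes. At least a 2-fold difference between clones of a genotype was read for 4 of the 29 (Grb10, Plagl1, Meg3 and Ascl2), and for 1.08% of all genes. Grb10 and Plagl1 did so between WT clones (0.545% of all genes), Meg3 and Ascl2 between KO clones (0.568%). At 1.5-fold there were 9 of 29 and 10.6% of all genes, and at 3-fold 1 (Grb10) and 0.0614%. Grb10 and Plagl1 were among the genes at least 2-fold apart under each alternative pseudocount, filter and scaling. In the values as deposited, where WT clone 1 was brightest, 5 of the 29 were 2-fold apart, beside 8.85% of all genes. With the mean of each gene's probe sets in place of the brightest, 2 remained, Grb10 and Plagl1, against 0.875% of all genes.

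**Figure D3:**
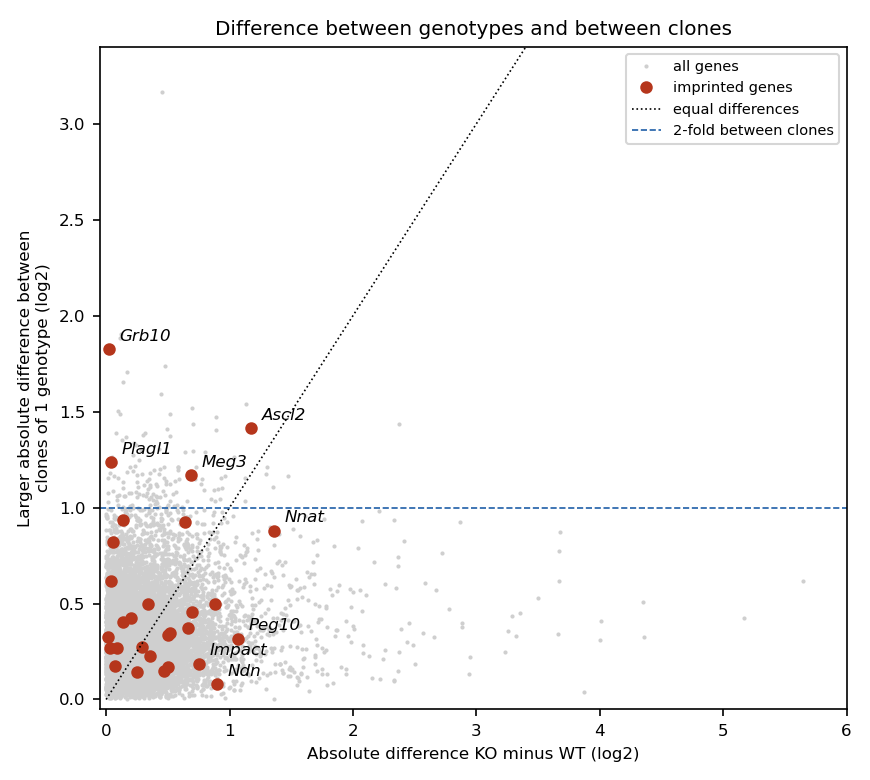
Absolute log2 difference between KO and WT means (x axis) against the larger absolute log2 difference between clones of a genotype (y axis) for 13023 genes in grey and the 29 imprinted genes in red. Grb10, Plagl1, Meg3 and Ascl2 lie above the dashed line at a 2-fold difference, and Ndn, Impact, Peg10 and Nnat lie right of the dotted line of equal differences.

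Grb10, an adaptor that dampens insulin and IGF signalling and is expressed from the maternal copy outside the brain, differed most between clones among the 29. The WT readings were 400 for clone 1 and 101 for clone 2, and the KO readings 171 and 253. The WT clones were 3.54-fold apart and both KO clones lay between them. The KO clones were 1.44-fold apart, and the genotypes did not differ detectably (log2 fold change 0.019, 95% confidence interval -1.08 to 1.12). Of 13023 genes ranked by their larger clone difference, Grb10 was number 4. Its other probe sets also read highest in WT clone 1, at 59.97 against 19.7 in WT clone 2, and at 35.9 against 11.6, which made 3 of 3.

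Plagl1 (Zac1), a zinc finger factor of the paternal copy that arrests the cell cycle, showed the same order of WT clones. The WT readings were 664.5 for clone 1 and 273 for clone 2, and the KO readings 410 and 421. The WT clones were 2.35-fold apart, while the KO clones between them were 1.03-fold apart. The probe set carries the suffix _x_at, which marks probes that can also match other transcripts, and the remaining Plagl1 probe sets were too dim to compare. Without WT clone 1 the Plagl1 log2 fold change was 0.58 and without WT clone 2 it was -0.66, with neither past the threshold. Of the 17 fibroblast markers, 11 read higher in WT clone 1 than in WT clone 2 and 6 read lower, with sums of 831 and 717. The deposited intensities of WT clone 1 were also the brightest, and the part of either in the Grb10 and Plagl1 values was not tested.

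Meg3, Rian and Mirg are long noncoding RNAs of the Dlk1 cluster that are made from the maternal copy, and small RNAs are cut from this stretch. By RefSeq, 1, 3 and 10 microRNA hairpins lay within the spans of Meg3, Rian and Mirg. The level of these RNAs is a known mark of ES cell clones that differ in developmental potential. Meg3 read 353 and 275 in WT, then 777 for KO clone 1 and 337 for KO clone 2. On this probe set KO clone 1 was thus the sole high array, 2.25-fold above KO clone 2, which lay among the WT clones. The log2 fold change was 0.69 ± 0.34 (limma, adjusted p = 0.291), with 1.28 when KO clone 2 was left out and 0.11 when KO clone 1 was. All 11 Meg3 probe sets read lower in KO clone 2 than in KO clone 1, by 1.005-fold to 2.44-fold. KO clone 1 was the brightest of the 4 arrays in 10 of them. The log2 fold change was positive for 9 of the 11 and negative for 2. On some probe sets both KO clones lay above both WT clones, and on others the groups overlapped. An example of the former read 124 and 123 in WT beside 331 and 160 in KO. The beta-actin ratio was also highest in KO clone 1, and its part was not tested. The summed fibroblast intensity was 7708 and 6983 in the KO clones, with S100a4 alone at 2960 and 1925. Of the 17 markers, 4 read higher in KO clone 1 than in KO clone 2. Their median log2 difference from the WT mean was 1.94 and 2.21 in the KO clones, and their part was not tested.

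Mirg also read lower in KO clone 2 than in KO clone 1, but from a different level. It read 132 and 134 in WT, then 116 for KO clone 1 and 53.3 for KO clone 2, so that here KO clone 2 stood apart below the other arrays. The KO clones were 1.90-fold apart on this probe set and 1.99-fold on the other. The log2 fold change was -0.64 ± 0.28 (limma, adjusted p = 0.244), and leaving out KO clone 1 gave -1.10, leaving out KO clone 2 -0.18. Rian, between them in the genome, read 240 and 267 in WT beside 215.5 and 205 in KO, with KO clones 1.05-fold apart and a log2 fold change of -0.25 (limma, adjusted p = 0.466). Its 3 other probe sets had 0.067, -0.39 and 0.36, with KO clones 1.07-, 1.26- and 1.48-fold apart, and the mean of its probe sets gave -0.052. Dlk1, the paternally expressed Notch ligand-like gene of the cluster, read 37.8 and 32.9 in WT beside 34.9 and 52.4 in KO, with overlapping groups and 0.20 (95% confidence interval -0.26 to 0.67). Both Mirg probe sets were lowest in KO clone 2, while the Rian probe sets differed in which array was lowest.

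**Figure D4:**
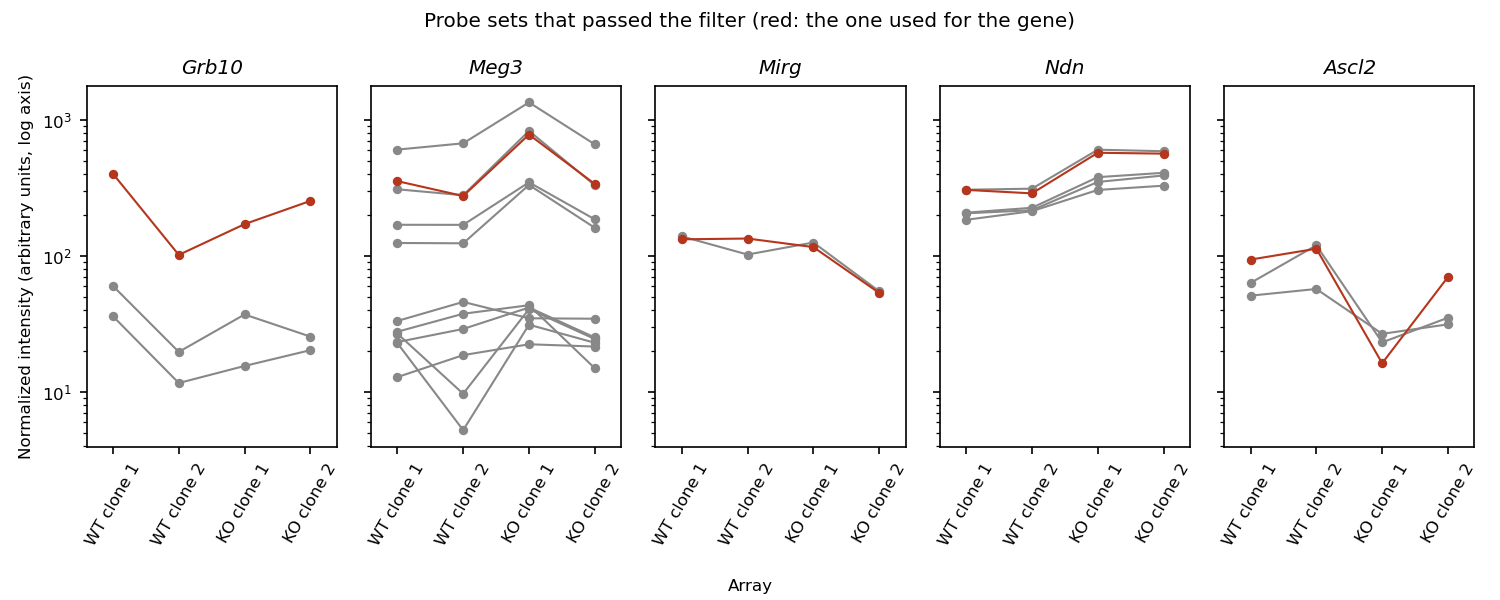
Normalized intensity (log axis) on the 4 arrays for every probe set above the filter of Grb10, Meg3, Mirg, Ndn and Ascl2; each line joins the readings of 1 probe set, and red marks the one used for the gene. All 3 Grb10 lines are highest in WT clone 1, the brighter Meg3 lines peak in KO clone 1, both Mirg lines drop in KO clone 2, and all 5 Ndn lines are higher in both KO clones.

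A list of 48 further genes reported as imprinted had 34 measured members, with a median of -0.0095. Of these 3 rose, 0 fell and 31 did not pass, beside 2.94% higher and 1.34% lower over all genes. The proteoglycan Dcn (decorin), imprinted in placenta and abundant in fibroblasts, read 2.14 and 2.89 in WT against 72.0 and 59.1 in KO (2.13 ± 0.18, limma, adjusted p = 0.000532). The protease inhibitor Tfpi2 rose by 1.78 ± 0.19 (limma, adjusted p = 0.00151) and the decoy receptor gene Tnfrsf23 by 0.996 ± 0.19 (limma, adjusted p = 0.0275). The WT readings of all 3 lay below or near the filter intensity, so their folds depend on the pseudocount. The WT means of Dcn and Tnfrsf23, at 4.21 and 4.75 on the log2 scale, lay below the filter at 4.86. Both thus passed the filter only through their KO readings. The fibroblast markers rose in the same arrays, and their part was not tested. Chosen after their values were seen, Xist and Osbpl5 were the 2 of 34 members at least 2-fold apart between clones of a genotype (1.08% of all genes). Xist, the noncoding RNA of X inactivation, read 237 and 257 in WT beside 291 and 122 in KO. Osbpl5, a lipid-binding protein gene, read 30.6 and 4.15 in WT beside 18.7 and 44.6 in KO.

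A list of 26 factors that set, keep, remove or read DNA methylation and repressive chromatin included Zfp42, also counted as an ES cell marker. Of these 0 rose, 1 fell and 25 did not pass in limma, beside 2.94% higher and 1.34% lower over all genes. At an unadjusted p under 0.05 in limma 4 were higher and 5 lower (10.9% and 10.6% of all genes). Ehmt2, the histone methyltransferase G9a, fell by 0.88 ± 0.18 (limma, adjusted p = 0.0321), from 1050 and 1049 in WT to 538 and 589 in KO. The list's median was -0.28. In both KO clones 15 of the 26 read lower and 5 higher, against 29.7% and 25.9% of all genes. Zfp57, a zinc finger protein that guards imprints, read 121 and 242 in the WT clones and came to 130 and 105 in the KO clones. WT clone 2 thus stood above the other arrays, and the value did not pass (-0.498, limma, adjusted p = 0.363). Dppa3 (Stella), which protects imprints after fertilisation, read 343 and 674 in WT beside 895 and 1007 in KO (0.96, limma, adjusted p = 0.112). Among DNA methylation factors Dnmt1 had -0.72 (adjusted p = 0.0653), Uhrf1 -0.68 (0.104) and Dnmt3a 0.86 (0.0609), which did not pass in limma. Zfp57, Dppa3, Dnmt1, Uhrf1 and Dnmt3a were named after their values were seen.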

How the data were processed

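The authors deposited 1 table of linear intensity values, 1 per probe set (45101 rows, 64 of them controls) and array. No summary algorithm, background correction or scaling method is named in the sources used here. Because trimmed means differed by up to 1.65 times, arrays were quantile normalized and log2(intensity + 16) was taken, a scale that understates changes of dim genes. A filter on the mean over arrays, at the 40th percentile, kept 27022 probe sets. KO and WT were compared with limma 3.58.1 in R 4.3.3 (lmFit and eBayes, 6.87 prior degrees of freedom), with Benjamini-Hochberg adjustment across those probe sets. The fit was tested on simulated data. Errors are moderated standard errors, n = 2 arrays per group. The number of arrays limits the precision, and an exact permutation of 2 against 2 cannot go below p = 0.33.

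Each gene was read from its probe set of highest mean, _x_at last. Members and lists were chosen with earlier results of these data known. Values in all arrays are given for members that passed, that were at least 2-fold apart between genotypes or clones, or that were brightest in a cluster. Alternatives were the pseudocount, filter, scaling, mean of probe sets, variance trend, clone block and each array left out.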

Additional observations from a re-analysis of the deposited data

How the results depend on the processing

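The count of imprinted genes that passed (3) was 0 with a pseudocount of 1 or no filter in limma, and 6 with a pseudocount of 64. It was 5 with the filter at the 60th percentile or a variance trend, 10 with median centring and 2 in the values as deposited. Clone numbers give no stated pairing (the correlation of same-numbered deviations was 0.054). With clone number as a replicate block 6 passed, beside 5.84% of all genes. Over all genes 4.28% passed in the main fit, 0.869% with a pseudocount of 1 and 0.643% with no filter. The share was 9.06% with a pseudocount of 64 and 8.15% with the filter at the 60th percentile. It was 8.6% with a variance trend, 10.3% with median centring and 1.48% in the values as deposited. The median log2 fold change (-0.058) was -0.15 with a pseudocount of 1, -0.25 with the stricter filter, -0.35 as deposited, -0.30 with median centring, and -0.27 to -0.12 with an array left out. The difference between genotypes exceeded both clone differences in 8 genes as deposited, against 14 (22.5% and 42.3% of all genes). Genes at least 2-fold apart between clones numbered 8 with a pseudocount of 1 (6.28% of all genes), 5 as deposited (8.85%) and 2 with the mean of probe sets (0.875%). At 1.5-fold and 3-fold there were 9 and 1 (10.6% and 0.0614%), against 4 (1.08%) in the main setting. Among log2 fold changes of single genes under each alternative, 304 kept direction and call, 19 lost the call, 20 gained it and 28 changed sign. Those that changed sign were Grb10 (-0.023 with a pseudocount of 64, -0.28 as deposited, -0.21 with median centring, -0.098 with the mean of probe sets, and -0.89 to 0.93 with an array left out), Kcnq1ot1 (-0.055 as deposited, -0.026 with median centring, -0.033 with the mean of probe sets, -0.27 to 0.35 left out), Mkrn3 (-0.13, -0.091 and -0.15 to 0.18), Sgce (-0.12, -0.076 and -0.046 to 0.22) and Gnas (-0.037 as deposited). With an array left out the ranges crossed 0 for Airn (-0.069 to 0.34), Dlk1 (-0.012 to 0.41), Magel2 (-0.017 to 0.16), Peg12 (-0.47 to 0.35), Peg3 (-0.16 to 0.10), Plagl1 (-0.66 to 0.58) and Snrpn (-0.60 to 0.33). The cause was not tested. With 1 array left out, the lone array of its group is assumed to vary like the other group. Readings near the filter intensity are limited by signal over background.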
